A study of Homo sapiens with 2 samples.

Results

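Distal to distal interactions were the listed contacts in which neither of the joined 5-kb bins held a transcription start site. The rule looks only inside the bins, so a start site can lie just outside them. A start site was the 5′ end of any annotated transcript of a protein-coding or long noncoding RNA (lncRNA) gene in GENCODE release 44 on hg38. By this positional rule, 34031 of 49245 listed interactions were distal to distal, which was 69.1% of the list (95% Wilson interval 68.7 to 69.5). A start site lay in 1 bin of a further 13340 interactions (27.1%) and in both bins of 1874 (3.81%).

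The contacts were measured by HiChIP, in which cross-linked chromatin bound by a chosen protein is pulled down and DNA ends held close together are then ligated and sequenced. The cells were HAL-01, a human leukemia line with the translocation t(17;19), in which Cas9GFP was stably expressed and the wild-type TCF3 allele (wt-TCF3 KO) had been knocked out with an sgRNA. An antibody against E2A, the protein made from TCF3, was used for the pull-down in 2 replicates. The replicates were merged by the authors before calling into 1 list, there was no group without the fusion protein, and a single cell line stood for the disease, so no value below carries a replicate error.

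TCF3::HLF joins the activation domains of TCF3 to the basic leucine zipper of HLF, which binds DNA as a dimer at a short, nearly symmetrical site. Enhancers are stretches of regulatory DNA that act on promoters from a distance, and several enhancers of 1 locus can also lie close to each other in the nucleus. Contacts between distal sites include enhancer pairs as well as structural loops between sites bound by CTCF, a zinc finger protein that halts loop extrusion.

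The HLF site was searched as exact matches to TTACGTAA, which reads the same on both strands, or to TTATGTAA on either strand. The palindromic form is given as it occurred in 6 of the most connected bins that held it, since these bins were joined to many other distal sites and show how the site sits in its surrounding sequence. Each line gives the hg38 plus strand, 5′ to 3′, with 20 bases on each side, and capitals mark the HLF site.

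NRAD1, chr13:43912048-43912095: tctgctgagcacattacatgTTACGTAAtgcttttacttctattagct
ZEB2, chr2:144372530-144372577: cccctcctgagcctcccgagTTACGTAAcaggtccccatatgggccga
Intergenic, chr7:47153307-47153354: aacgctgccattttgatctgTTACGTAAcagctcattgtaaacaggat
Intergenic, chr14:55893095-55893142: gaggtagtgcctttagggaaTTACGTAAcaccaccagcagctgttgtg
RPRD1B, chr20:38094505-38094552: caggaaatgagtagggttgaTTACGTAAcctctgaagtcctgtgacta
MAPRE2, chr18:35035878-35035925: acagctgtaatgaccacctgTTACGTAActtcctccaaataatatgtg

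The NRAD1 bin took part in 33 distal to distal interactions and the ZEB2 bin in 29. The intergenic bins had 27 on chromosome 7 and 25 on chromosome 14, the RPRD1B bin had 23 and the MAPRE2 bin 22. All 6 windows lay outside annotated exons, and the GC content of the windows ran from 35.4% to 62.5%. Each of these bins was also joined to start-site bins, by 4 to 8 interactions.

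The distal to distal interactions were common in the list but less common than the genome would give. Among all pairs of 5-kb bins on the same chromosomes and at the same distances, 77.6% held no start site, compared with 69.1% of the listed pairs, a difference of -8.48 percentage points. The listed share lay below the share among all bin pairs on each of 23 chromosomes. It was lowest on the gene-dense chromosome 19, at 46.5% compared with 50.1% of bin pairs, and highest on chromosome X, at 78.7% compared with 87.2%. The widest gap was on chromosome 22, where 48.9% of the interactions and 65.2% of the bin pairs lacked a start site. Across chromosomes the listed share followed the share among bin pairs (Pearson r = 0.95, Spearman rho = 0.94, n = 23, a description only, since both shares count the same start sites). Per megabase, chromosome 20 held the most distal to distal interactions, at 16.9, and chromosome 19 the fewest, at 5.37.

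**Figure D1:**
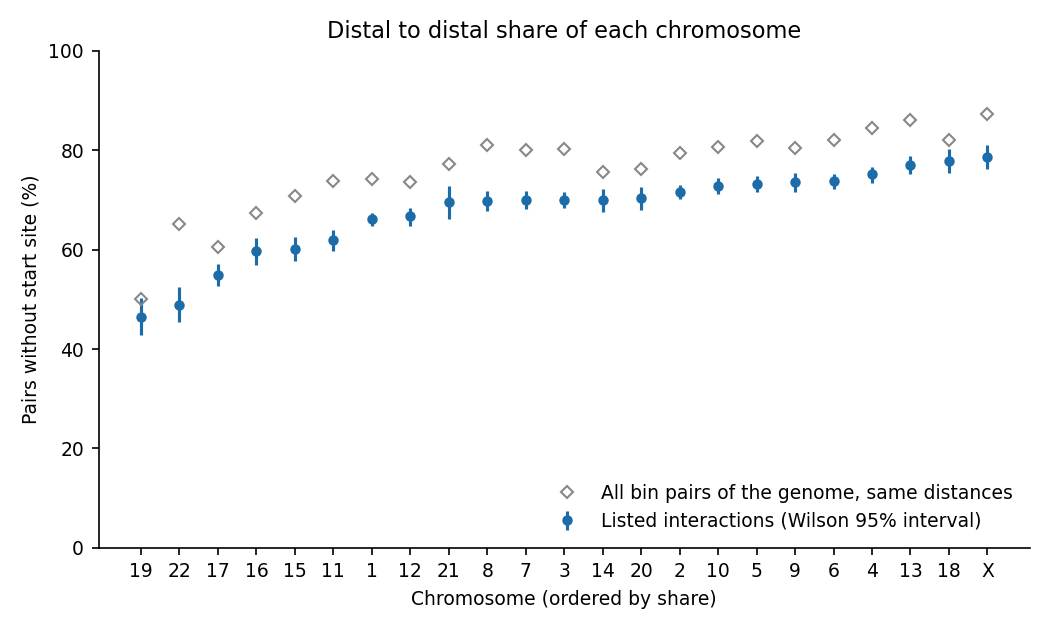
Share of pairs in which neither bin held a start site (percent) on each chromosome, ordered by the share in the list. Filled points are the listed interactions with 95% Wilson intervals and open diamonds are all bin pairs of the same chromosome at the same distances; the points run from 46.5% on chromosome 19 to 78.7% on chromosome X, and each lies below its diamond.

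The contacts without a start site reached slightly farther than the others. Their median distance was 260 kb (95% interval 255 to 265), compared with 240 kb (235 to 245) for interactions with a start site in at least 1 bin. The median was longer on 19 chromosomes and shorter on 3, by 14.8 kb on average over 23 chromosomes (two-sided permutation test by sign flips of the chromosome differences, p = 0.00243, adjusted p = 0.00405 over 5 tests). The difference was 23.3 kb when a start site within 10 kb also counted, and 8.48 kb among interactions of up to 1 Mb. It was 24.9 kb with merged bin ranges, a setting that moves only merged groups of bin pairs out of the class. Such groups were mostly short, at 14.1% of distal to distal interactions from 50 to 100 kb and 0.14% from 2000 to 3000 kb. The value of 24.9 kb is therefore no independent check. The chromosomes are not replicates of the experiment, and these tests measure only how evenly a difference was spread over the genome. By distance, the distal to distal share was 68.0% of interactions from 50 to 100 kb, 70.9% from 500 to 1000 kb, and 71.1% from 2000 to 3000 kb, whereas the share among bin pairs stayed between 77.4% and 77.7%.

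Contact counts, in read pairs per joined pair of bins, had the same median in both classes. It was 24 read pairs, and the distal to distal interactions ran from 7 to 615 and summed to 870529. After each count was divided by the median of all listed interactions at the same distance, the chromosome medians differed by -0.012 on the log2 scale (lower on 9 chromosomes, higher on 3, permutation adjusted p = 0.105), which did not pass the test. With the mean in place of the median, a choice made after the data were seen, the difference was -0.020 and passed (permutation adjusted p = 0.00188). The share of distal to distal interactions fell from 71.2% of those with 7 to 14 read pairs to 59.4% of those with 100 or more (57 of 96, Wilson interval 49.4 to 68.7). Nearby significant bin pairs had been merged into groups, and 7.30% of distal to distal interactions belonged to a group of more than 1 pair, compared with 8.56% of the others. This share was lower on 19 chromosomes and higher on 4, by -1.47 percentage points on average (permutation adjusted p = 0.000375). When a start site anywhere in the merged range of a group counted, which widens the bins of merged groups alone, the difference was -6.21 points and negative on all 23 chromosomes.

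**Figure D2:**
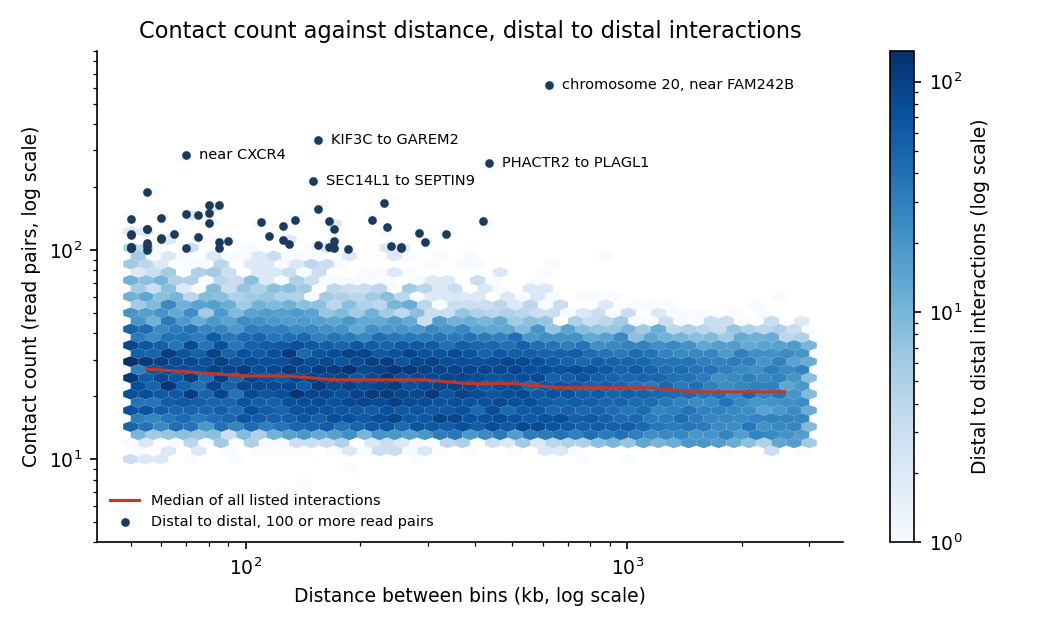
Contact count (read pairs, log scale) against the distance between bins (kb, log scale) for the 34031 distal to distal interactions, with shading for the number of interactions per hexagon. Dark points are the 57 interactions with 100 or more read pairs, the line is the median of all listed interactions, and names give the nearest coding genes of the 5 highest counts (for the highest, the nearest start site); the counts reach 615 read pairs, and the median of the distal to distal interactions falls from 26 read pairs at 50 to 100 kb to 21 at 2000 to 3000 kb.

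The highest contact count belonged to a pair of intergenic bins on chromosome 20 (29260001 to 29265000 and 29885001 to 29890000), 625 kb apart, with 615 read pairs (Poisson 95% interval 567 to 666). This was 30.8 times the median at that distance. Read-pair copies were not removed, so this interval and those of the other contact counts can be too narrow. The bins shared 1058 stretches of 31 bases, and 3.90 kb of unknown bases lay between them. Pairs sharing at least 500 such stretches were rare, at 8 of the 34031 (0.0235%), and only this 1 was among the 57 with 100 or more read pairs. Reads from near-identical bins can be placed in either of them, and the part of this in the count was not tested.

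The next highest counts lay near genes. On chromosome 2, a bin 7.25 kb from KIF3C, which encodes a kinesin motor, was joined to a bin 155 kb away between RAB10 and GAREM2 by 336 read pairs (301 to 374). The same KIF3C bin reached 4 further bins inside RAB10, a small GTPase gene, with 39 to 140 read pairs, and all 5 pairs carried the highest summed count of a merged group, 2025. A pair near CXCR4, the receptor for CXCL12 that holds blood progenitors in the marrow, had 284 read pairs. Its bins lay 15.8 and 85.8 kb from the CXCR4 start site and 70 kb apart, and both were well connected, with 15 and 11 distal to distal interactions. PHACTR2, an actin and phosphatase regulator, was joined to the imprinted zinc finger gene PLAGL1 over 435 kb by 260 read pairs (229 to 294), with the 5′ ends of 4 coding genes between. The PLAGL1 bin lay 1.18 kb from a start site of that gene.

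Further pairs in the highest 10 again shared anchors. The SEC14L1 bin on chromosome 17 was joined by 215 read pairs to a bin 30.6 kb from SEPTIN9. It was joined by 165 to another bin in SEC14L1, which lay 1.04 kb from a start site of that gene. The S100 cluster of calcium-binding protein genes on chromosome 1 held a pair with 190 read pairs, from a bin 5.62 kb from S100A12 to 1 in S100A7A. GALNTL6 and GALNT7, genes of the same glycosyltransferase family, were joined by 168 read pairs over 230 kb. EXOC6B, an exocyst subunit gene, was joined to an intergenic bin by 164, and a bin 11.8 kb from PRDM13 to a bin 155 kb away by 157. Leaving aside the chromosome 20 pair, in each of these pairs at least 1 bin took part in 9 or more distal to distal interactions.

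Contacts of 1 Mb or more were weaker, with at most 59 read pairs. The strongest joined bins in lncRNA genes on chromosome 2, 301 kb from ERBB4 and 22 kb from ATIC, over 2445 kb. A pair of intergenic bins on chromosome 7, 113 kb from COBL and 441 kb from POM121L12, had 57 read pairs, and a bin in THSD7A was joined to an intergenic bin by 55. On chromosome 1, a bin in a lncRNA gene 65.3 kb from NFIA was joined by 54 to an intergenic bin 121 kb from ATG4C. A bin in SIK3, 0.863 kb from a start site of that gene, was joined by 54 to a bin in TMPRSS4, 1.79 kb from a SMIM35 start site. These counts were 2.25 to 3.03 times the median at the same distance. Counts of 54 to 59 do not differ beyond their counting error, so the order among these pairs carries no information.

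The interactions formed stars rather than closed groups. They joined 38525 distal bins, of which 78.3% took part in only 1 distal to distal interaction and 633 (1.64%) in 10 or more. Those 633 bins touched 8789 interactions, 25.8% of the total. Bins linked by shared interactions fell into 5046 connected groups with a median of 4 bins and a largest group of 289 bins and 307 interactions. Closed triangles, in which 3 distal bins were all joined to each other, numbered 149, and 0.367% of the paths over 3 bins were closed. Peaks of the pull-down served as the reference for calling, which allows a bin with a peak many partners, and the part of this in the star shape was not tested.

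The HLF motif followed the number of interactions of a bin. Of all 510706 bins without a start site, 31.5% held the motif, and among bins with 1 distal to distal interaction the share was 29.7% (8971 of 30158, Wilson interval 29.2 to 30.3). It was 37.9% with 2 to 4 interactions, 51.1% with 5 to 9, 68.4% with 10 to 19, and 82.9% with 20 or more (58 of 70, 72.4 to 89.9). Flanking bins 25 kb away, without a start site and without any listed interaction, stayed between 28.8% and 33.7% in all 5 classes. GC content varied from 40.2% to 41.7% over these classes of anchor bins. The palindromic TTACGTAA was rarer, at 16.7 per 1000 bins with 1 interaction and 71.0 with 10 to 19, compared with 18.9 and 12.9 per 1000 in the flanking bins. TTATGTAA occurred 351 and 888.1 times per 1000 bins in those classes, compared with 353 and 337 in the flanks. In the 70 bins with 20 or more interactions, TTACGTAA occurred 6 times (85.7 per 1000 bins, compared with 43.5 in their 92 flanking bins) and TTATGTAA 93 times (1329 per 1000, compared with 424). Bins with a pull-down peak can have many partners by the calling alone, and the part of this in the link between motif and number of interactions was not tested.

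Over all anchors, 32.9% held the motif, compared with 29.9% of flanking bins. The difference was 2.96 percentage points on average over chromosomes and ran the same way on 22 of 23 (permutation p = 1e-05, a floor set by the 100000 resamples, or 5e-05 after adjustment). Bins with 1 interaction, the great majority, held the motif no more often than their flanks (29.7% compared with 30.2%). Of the distal anchors with a single listed interaction, those joined to a distal bin held the motif in 29.7% and those joined to a start-site bin in 27.8% (a difference that was not tested).

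Within an interaction, the motif lay mostly at the better connected end. In the 32929 interactions whose bins differed in their number of distal contacts, 55.1% of the better connected bins and 29.9% of their partners held it. Where a bin with 10 or more contacts met a bin with only 1 (7219 interactions), the shares were 72.0% (71.0 to 73.1) and 30.4% (29.3 to 31.5). The partners were close to the 31.5% of all bins without a start site, and the part of peak-based calling in this split was not tested either. Interactions of this kind share anchors, so the intervals, which cover counting error only, are too narrow. Both bins held the motif in 22.1% of these pairs, and the product of the separate shares was 21.9%. Among the 55 interactions that joined bins with 10 or more contacts at both ends, the motif was at both ends in 50.9%. The product of the separate shares of these 55 was 46.1%. Their median contact count was 32, and 49.1% were in merged groups. The 852 pairs in which both bins had no further distal contact showed the motif in 32.6% and 32.3% of their bins.

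Per interaction, 16.7% held the motif in both bins, 51.0% in 1, and 32.3% in neither. The share with the motif in at least 1 bin was 67.7% (67.2 to 68.2), compared with 64.7% (63.9 to 65.4) of interactions with a start site. This difference averaged 2.0 percentage points, was positive on 15 of 23 chromosomes and did not pass the test (permutation p = 0.0448, adjusted p = 0.056). The direction depended on the form of the motif, since the difference was -2.71 points for TTACGTAA alone (permutation adjusted p = 0.00664) and 3.26 for TTATGTAA alone (adjusted p = 0.00892). It was -0.25 points when only the 5′ end of each gene counted as a start site. Bins of distal to distal interactions had a mean GC content of 41.2%, compared with 44% in the other interactions, and the part of base composition in the motif shares was not tested. With contact count, the share with the motif rose from 62.4% (7 to 14 read pairs) to 76.0% (50 to 99), and the share with the motif at both ends from 14.1% to 20.4%. The median distance fell from 520 to 105 kb over the same classes, whereas by distance the motif share rose, from 67.1% at 50 to 100 kb to 71.1% at 2000 to 3000 kb. Interactions with a start site showed the same 2 rises, from 56.7% to 72.8% by contact count and from 63.8% to 68.1% by distance. At 100 or more read pairs, 77.2% of distal to distal interactions and 87.2% of the others held the motif.

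The best connected distal bins lay inside coding genes, inside lncRNA genes and between genes. An intergenic bin on chromosome 18 (73045001 to 73050000), 177 kb from NETO1, had the most, with 59 distal to distal interactions over 50 to 2125 kb and 6 interactions with start-site bins, among them those of FBXO15 and TIMM21. On chromosome 8, a bin in SNTG1, a syntrophin gene, had 48, and a bin in the lncRNA gene CCDC26 had 43 together with 7 to start-site bins of PVT1, PCAT1 and other lncRNA genes. The PHACTR2 bin described above also had 43, and 30 of its partners lay downstream. Bins near PRDM13 and WSCD2 had 35 and 33, and bins in RXRA, the retinoid X receptor alpha gene, in NRAD1 and in LRP1B had 33 each. The bin near KIF3C had 32.

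Of these 10 bins, 8 held at least 1 HLF motif, and the bins in RXRA and near KIF3C held none. The partners of the RXRA bin rarely held it either, at 2 of 33, whereas 22 of the 48 partners of the SNTG1 bin did. The counts of 32 to 35 do not differ beyond counting error. Contacts with start sites were few beside the distal ones in all 10, from 1 at LRP1B to 11 near WSCD2, where they reached CMKLR1, CORO1C and SSH1 among others.

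Many distal contacts stood 1 step from a promoter contact. Of the anchors, 4489 (11.7%) were also joined to a start-site bin, and 57.6% of the distal to distal interactions (19585, Wilson interval 57.0 to 58.1) had such an anchor. The share of linked anchors was 3.81% for bins with 1 distal to distal interaction, 52.7% with 5 to 9, and 80.0% with 20 or more. A bin with more listed contacts has more chances to meet a start site, and the part of this in the rise was not tested. The share of interactions with a linked anchor moved from 37.7% to 82.6% with the definition of a start site.

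The position of the anchors relative to genes was described without a test. Their median distance to the nearest start site was 16.7 kb, compared with 25.1 kb for all bins without a start site and 11.8 kb for distal bins joined to start-site bins. A whole bin was classed as exon if it touched any exon of a coding gene, and otherwise as intron if it touched a coding gene. The rest were classed as lncRNA if they touched a lncRNA gene, or else as intergenic. Intron bins made up 33.2% of the anchors, exon bins 18.3%, bins in lncRNA genes alone 14%, and intergenic bins 34.5%. Among all bins without a start site these shares were 27.8%, 14.4%, 15.5% and 42.3%. Just outside the rule, 3774 interactions (11.1%) had a start site within 1 kb of a bin, and 19626 (57.7%) had 1 within 10 kb. At the other extreme, 1105 interactions (3.25%) had both bins over 100 kb from any start site. These remote pairs held the HLF motif in at least 1 bin in 76.0% of cases (73.4 to 78.4), at a lower GC content of 37.3% and a shorter median distance of 165 kb. Of single bins over 100 kb from a start site, 39.0% of anchors and 34.2% of all distal bins held the motif. Pairs can share anchors, so the interval is too narrow, and no share expected for such pairs was computed.

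The motif share of anchors rose with distance from start sites, and so did that of other bins. Within 10 kb of a start site, 31% of anchors, 27.5% of flanking bins and 28.2% of all distal bins held the motif. Over 100 kb from a start site the shares were 39.0%, 36.1% and 34.2%, and the GC content of the anchors fell from 42.5% to 38.1%. Anchors with 5 or more interactions held it in 55.1% within 10 kb (52.1 to 58.0) and 52.4% over 100 kb (46.5 to 58.3), so their share did not differ beyond its counting error.

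The span between distal bins often held no 5′ end of a coding gene. The 5′ end of a median of 1 protein-coding gene lay between the bins, compared with 2 for interactions with a start site, and 37.2% had none between (36.6 to 37.7), compared with 24.9%. No start site of any kind lay between the bins in 11.3%. Both bins lay in the same coding gene in 4745 interactions (13.9%). These internal contacts were short, with a median of 105 kb, had a median contact count of 26, and were in merged groups in 13.3% of cases, compared with 5.10% of pairs in different coding genes, whose median distance was 380 kb.

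Long genes held the most internal contacts. LRP1B, a giant lipoprotein receptor gene, had 71 in 1900 kb, RAD51B, a DNA repair gene, 56 in 910 kb, and CDK14, a cyclin-dependent kinase gene, 50 in 744 kb. PLCB1, a phospholipase gene, had 49, FHIT 48, LPP 45 and BABAM2, a gene for a subunit of DNA damage complexes, 44 in only 449 kb. These genes are the highest of a ranking and were chosen after their values were seen.

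Gene lists were compared by the part of the gene body outside start-site bins. Over all 16508 protein-coding genes with at least 1 such bin, 41.2% held an anchor of a distal to distal interaction. The share was 58.3% of stem cell and progenitor factors (21 of 36), 63.9% of B-lineage factors (23 of 36), 77.5% of synaptic adhesion genes (31 of 40), 51.6% of cell cycle and DNA replication genes (16 of 31), and 33.3% of ribosomal protein genes (8 of 24). Synaptic genes served as a class of long genes, with a median of 197.5 distal bins, compared with 12 for B-lineage factors, 4 for cell cycle genes and 5 over all genes.

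Among genes with at least 20 distal bins, the median was 1.67 distal to distal interactions per 100 kb over 2977 coding genes, 7.0 over 11 B-lineage factors, 2.25 over 12 stem cell factors, and 0.496 over 39 synaptic genes. The 5 cell cycle genes of this length had a median of 4.0. Of all coding genes of this length, 81.4% (2423 of 2977) held an anchor of a distal to distal interaction. The share was 75% of stem cell factors (9 of 12), 79.5% of synaptic genes (31 of 39) and 90.9% of B-lineage factors (10 of 11). All 5 cell cycle genes of this length held an anchor. The shares over genes of every length, given above, were not matched for length. The lists were not tested against other genes.

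Among B-lineage factors, CD22, a B cell surface lectin, had 2 interactions in a single bin. ZEB2, a zinc finger repressor, had 36 in 21 bins (34.3 per 100 kb), most of them at the bin shown above, and FOXO1, a forkhead factor of B cell development, had 28 in 20 bins (28.0 per 100 kb). Of the stem cell factors, the homeobox gene HHEX had 9 in 1 bin, the MYB proto-oncogene 7 in 4, and ETV6 35 in 47 (14.9 per 100 kb). ORC1, a subunit of the origin recognition complex, had 10 in 6 bins, the tumor suppressor RB1 24 in 44 and the kinase gene CDK6 22 in 41. The leading synaptic genes were NTNG1 with 33 in 66 bins (10.0 per 100 kb), SLIT2 with 17 in 68 and NEGR1 with 38 in 168. The ribosomal genes RPL14, RPL31 and RPL9 had 6, 5 and 1 in at most 3 bins. Rates from 1 to 6 bins rest on few kilobases and are given as counts only.

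The CTCF core motif was found in 2.23% of anchors of distal to distal interactions and 1.65% of all bins without a start site. The share was 1.81% in flanking bins 25 kb away, 2.67% in distal anchors of start-site interactions and 3.50% in start-site anchors. The search pattern is not printed here, and these shares depend on how strict it was. They do not give the share of bins bound by CTCF. Exactly 1 motif in each bin was found in 48 distal to distal interactions. The motifs pointed toward each other in 20 of these (41.7%, Wilson interval 28.8 to 55.7), both forward in 12, away from each other in 10 (20.8%, 11.7 to 34.3), and both in reverse in 6. These shares are parts of the same 48 interactions, so their separate intervals do not compare them. The orientations were not tested against each other.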

How the data were processed

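The 2 HiChIP replicates of wt-TCF3 KO HAL-01 cells were processed together by the authors. Reads were trimmed (Trim Galore 0.6.6), merged over replicates and aligned to hg38 (BWA-MEM), and read-pair copies were not removed. The version of FitHiChIP and whether both bins had to hold a peak are not given in the sources used here. The deposited list holds 5-kb bin pairs from 50 kb to 3 Mb at q under 0.01 with nearby contacts merged. Its contact counts are raw read pairs, deposited without normalization; its p-values and q-values are FitHiChIP's, made by the authors with coverage bias in the model. The fraction of significant pairs in a merged group was deposited by the authors as computed by FitHiChIP. Positions are printed 1-based.

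Start sites and gene bodies came from GENCODE release 44. The background takes all bin pairs of the same chromosome and distance. Differences between classes were computed for each chromosome and tested by 100000 two-sided sign flips, adjusted by the Benjamini-Hochberg method over 5 tests. The sign-flip test alone was tried on simulated lists, for median distance only. Those lists drew the class of each interaction independently, whereas interactions of the real list share anchors. Intervals are 95% Wilson, exact Poisson or order-statistic intervals and cover counting error only. The Poisson intervals treat each read pair as independent, and copies were not removed, so they can be too narrow. A merged group was one whose summed count exceeded the contact count of its pair. Named interactions were the 10 highest by contact count and the 5 with the smallest p-values. To these came the 5 highest by summed count and the 5 highest by count at 1 Mb or more. Also named were the 10 best connected bins and 3 genes of each list by rate per 100 kb, without names withheld here. Members, lists and tests were chosen with earlier results of these data known. Tools were networkx 3.6.1, pysam 0.24.0, scipy 1.17.1, pandas 2.3.3 and numpy 2.4.6 under Python 3.11.15.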

Additional observations from a re-analysis of the deposited data

How the results depend on the processing

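Of 92 values recomputed under 16 alternative settings, 73 kept their direction and side of the threshold, or stayed close to the value reported. The number of distal to distal interactions was 14405 when a start site within 10 kb of a bin also counted, and 22502 at q under 1e-05. The share of them with an anchor joined to a start-site bin was 37.7% with only the 5′ end of each gene as a start site, 49.4% at 20 or more read pairs, 59.4% with merged bin ranges, 53.7% at q under 0.001, 46.8% at q under 1e-05, 82.6% with a start site within 10 kb, 63.0% with start sites of every biotype, and 53.7% up to 1 Mb. The log2 contact difference passed the permutation test with the 5′ end of each gene (-0.026, adjusted p = 0.0479), with merged bin ranges (-0.030, adjusted p = 0.00151) and with the mean (-0.020, adjusted p = 0.00188). The difference in the share with an HLF motif in at least 1 bin reversed with the 5′ end of each gene (-0.25 points) and with TTACGTAA alone (-2.71), and passed with TTATGTAA alone (3.26), a start site within 10 kb (3.02), every biotype (1.99) and up to 1 Mb (2.11). Other differences kept their direction and passed, but moved by over 1.5 times: median distance to 24.9 kb (merged bin ranges), 23.3 kb (start site within 10 kb) and 8.48 kb (up to 1 Mb), merged groups to -6.21 points (merged bin ranges), and anchors against flanks to 0.54 points (TTACGTAA alone). Merged bin ranges can only take merged groups of bin pairs out of the distal to distal class. Such groups made up 0.15% of these interactions with 7 to 14 read pairs, 13.8% with 30 to 49 and 89.5% with 100 or more. The differences in contact count, merged groups and median distance with merged bin ranges are therefore no independent checks. The causes of the other changes were not tested. The mean, and keeping 1 interaction per merged group, were chosen after seeing the data. No paired analysis was possible because the replicates were merged into 1 list of a single group, and no replicate could be left out.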
